A study of Mus musculus with 6 samples.

Results

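The replication-dependent histone genes were taken as every gene symbol of the count tables that starts with Hist1h to Hist4h followed by a histone number, which gave 68 of 23366 symbols. By class they were 6 H1, 18 H2A, 19 H2B, 12 H3 and 13 H4 genes, and by cluster 54 Hist1, 10 Hist2, 3 Hist3 genes and the single Hist4 gene. The GENCODE M21 annotation of GRCm38 places these clusters on chromosomes 13, 3, 11 and 6. Polyadenylated RNA of 6 whole mouse embryos at stage E10.5 had been sequenced. The 3 knockout embryos were H3f3a fl/-, H3f3b fl/- and the 3 control embryos H3f3a fl/+, H3f3b fl/+, where fl is a floxed allele. All 6 were Sox2-Cre Tg/0 and Trp53-/-, so they lack p53, and they came from a mixed C57BL/6, CD1 and 129 stock. Sox2-Cre acts in the epiblast, so the floxed alleles of controls were open to deletion too and the controls are not embryos with intact H3.3 genes. H3f3a and H3f3b both encode H3.3, the variant that replaces H3 outside of DNA replication. The labels do not say whether embryos shared a litter, so p-values measure the spread between these embryos only.

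Replication-dependent histone genes supply the bulk of new histones in S phase. H2A, H2B, H3 and H4 form the nucleosome core and H1 binds the linker DNA between nucleosomes. H3.1 and H3.2 are the H3 forms laid down with replication, whereas H3.3 is laid down at any time. Transcripts of these genes mostly end in a conserved stem-loop bound by SLBP in place of a poly(A) tail, although some are also made with a tail, mainly in differentiating cells. Counts from poly(A)-selected RNA therefore describe the histone transcripts that this selection kept, not the whole histone mRNA pool. In whole embryos, fewer cells of a type and less RNA per cell cannot be told apart.

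The stem-loop is shown first because transcripts that end at it carry no poly(A) tail. It was searched on the sense strand of GENCODE M21 transcripts as CTTTT, any base and AG, with 4 bases before and 4 after, and with the first 6 of its 16 bases complementary to the last 6. At least 1 transcript of 44 of the 68 genes held it, in 6 distinct forms, against 0.421% of 21877 protein-coding genes. Some of the other 24 genes are annotated with little beyond the coding sequence, such as Hist1h2ak with 393 bases, so a missing match says only that these letters are not in the annotated transcript. One gene of each form is given with 5 flanking bases on either side, 5′ to 3′, with the 16 bases of the match in capitals.
Hist1h1c: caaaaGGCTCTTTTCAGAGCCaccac
Hist1h2bk: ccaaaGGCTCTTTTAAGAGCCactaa
Hist2h2ac: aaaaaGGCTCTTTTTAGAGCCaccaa
Hist4h4: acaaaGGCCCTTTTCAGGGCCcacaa
Hist1h4i: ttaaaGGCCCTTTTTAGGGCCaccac
Hist1h4b: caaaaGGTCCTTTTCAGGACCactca
The form printed for Hist1h1c was shared by 26 genes of the H1, H2A, H2B and H3 classes. The forms with the stem letters of Hist4h4, Hist1h4i and Hist1h4b were found among H4 genes only. Annotated transcripts can run past the loop, by 840 bases in Hist1h1c and 1643 bases in Hist3h2a, and no match was found in Hist1h2ak, Hist2h2be or Hist1h2bc.

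The libraries held 24952853 to 30461689 counts in genes, and 0.00562% to 0.00885% of them fell in the histone genes. In the knockouts 18.3%, 10.6% and 18.02% of alignments lay outside genes, against 9.79%, 10.7% and 13.1% in the controls. H3f3a had 1818, 1744 and 1996 counts in the knockouts, against 9851, 10775 and 9685 in the controls (edgeR adjusted p = 1.5e-06). H3f3b had 12164, 13626 and 11431 counts in the knockouts, against 19717, 21379 and 18942 in the controls (edgeR adjusted p = 0.0257). All 14 genes of a list for the neural tube, heart, somites, limb buds, crest, tail bud and blood of such embryos were expressed and none was called. The tail bud gene T had the largest log2 fold change of the list, at 1.11 (edgeR adjusted p = 0.101), with all knockouts above all controls.

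Most histone genes gave few counts. Over the 6 libraries the 68 genes had 12404 counts, and Hist3h2a, Hist1h2ak and Hist2h2be together gave 41.6% of them. The genes with enough counts to be tested numbered 35, with mean levels of 0.281 CPM (the count relative to the TMM-scaled library size) for Hist1h3b to 10.98 CPM for Hist3h2a. Of these tested genes 24 had means under 1 CPM. The other 33 genes had 0 to 59 counts in all, and 5 had none in any library: Hist1h2ap, Hist1h2bq, Hist1h2br, Hist2h2aa1 and Hist2h2aa2. Reads that align to several places had been left out by the authors, as shown by a separate row for them in the tables, so near-identical genes are seen only through the bases that differ. To describe this, each gene's annotated transcripts were cut into all windows of 50 bases, and windows also found in a transcript of another, non-overlapping gene were counted. The read length is not given in the sources used here, so 50 bases is a chosen size.

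Genes with 80% or more of their windows shared gave few counts. Among 17 genes with under 20% of windows shared, the median was 129 counts and 12 were tested. Among 21 genes with 20% to under 50% shared, the median was 80 counts and 13 were tested. Among 15 genes with 50% to under 80% shared, the median was 68 counts and 9 were tested, and these include Hist1h2ak with 52.3% shared and 1807 counts. Among 15 genes with 80% or more shared, the median was 4 counts and 1 was tested, and the 5 genes with no counts had 88.7% to 100% shared. H1 genes are the most distinct, with a median of 1.13% of windows shared, while the medians were 73.0% for H2A, 43.8% for H2B, 57.2% for H3 and 39.5% for H4 genes. Counts of H2A, H3 and other core histone genes thus leave out an unknown part of their reads, and how reads split between near-identical copies is uncertain. Expressed per kilobase of annotated exon, Hist1h2ak had the highest level at 26.8 CPM per kb, followed by Hist3h2ba at 9.31, Hist3h2a at 5.12 and Hist1h4i at 4.50 CPM per kb. The annotation the authors counted on is not given in the sources used here, so lengths in it may differ, and for Hist1h2ak the length is that of 393 annotated bases.

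**Figure D1:**
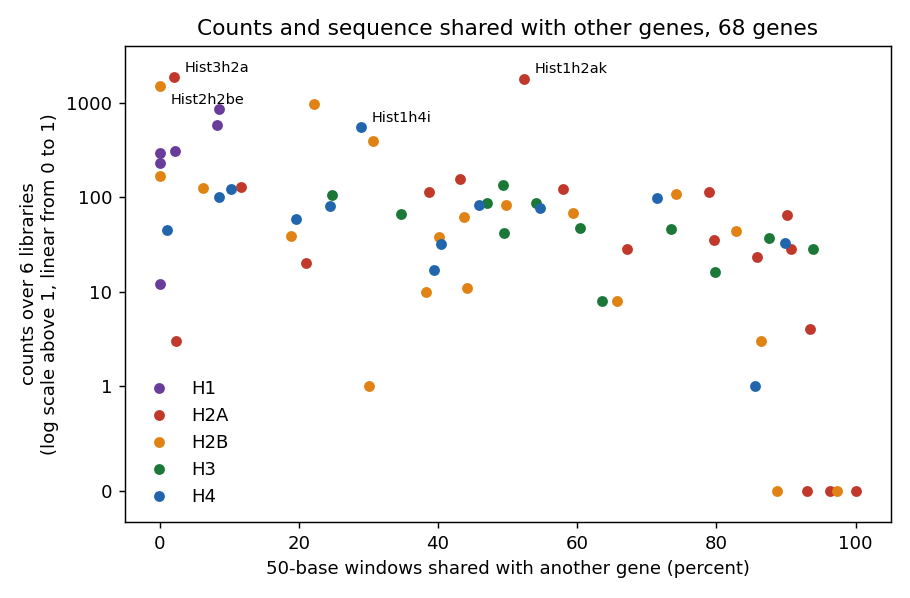
Each point is 1 of the 68 histone genes, coloured by class, with the percentage of its 50-base windows shared with another gene on the x axis and its counts over the 6 libraries on the y axis (logarithmic above 1). The 5 genes at 0 lie at 88.7% or more shared, while Hist1h2ak has 1807 counts at 52.3% shared.

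No histone gene passed the test between knockouts and controls. Of 35 tested, none was called higher or lower by edgeR's quasi-likelihood test with Benjamini-Hochberg adjustment over all genes, where 1.51% of all 15075 tested genes were called, 0.551% higher and 0.955% lower. DESeq2 and limma-voom called none either, and 2 of the 35 had an unadjusted edgeR p under 0.05, which is 5.71% against 19.2% of all tested genes. Most estimates were nonetheless below 0, at 25 of 35 genes or 71.4%, against 50.3% of all tested genes. The median log2 fold change, knockout over control, was -0.26 over the 35 genes and -0.001 over all tested genes. That median depended on single embryos, at -0.07 without knockout 3 and -0.04 without control 1, and it was -0.05 with the share of alignments outside genes as a covariate. The groups of 3 were apart for 5 genes, all with knockouts lower, which is 14.3% of the 35 against 12.3% of all tested genes. They were Hist2h2be, Hist1h2ak, Hist1h3g, Hist1h2bk and Hist2h3c1. No tested histone gene had the knockouts apart on the higher side, against 11.8% of all tested genes. Among genes with too few counts to be tested, the CPM of Hist2h4 was apart on the higher side. That of Hist1h1t, Hist1h2bp and Hist1h4f was apart on the lower side. These genes had 45, 12, 11 and 17 counts over all 6 libraries, in the order named. The share of untested genes with groups apart was not counted over all genes, so nothing is read from these separations.

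Leaving out single embryos brought up 3 genes. Without knockout 1 Hist1h2ak was called lower (log2 fold change -4.07, edgeR adjusted p = 0.00948). Without knockout 2 Hist1h2ab was called lower (-1.46, edgeR adjusted p = 0.0497) and Hist4h4 higher (1.18, edgeR adjusted p = 0.0399). Without knockout 2 the calls over all genes also stood at 1159 higher and 504 lower, against 83 and 144 with all 6 embryos.

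**Figure D2:**
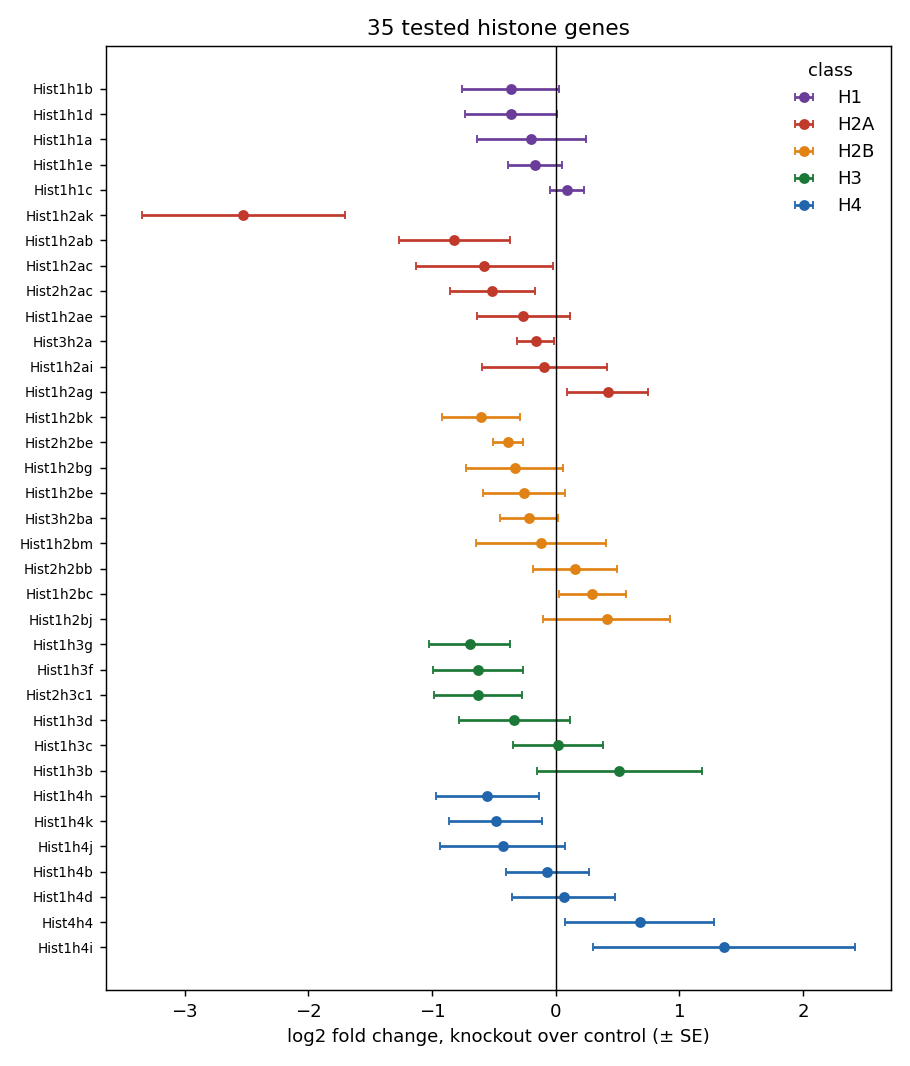
Log2 fold change of each of the 35 tested histone genes, knockout over control, with its standard error, grouped and coloured by class. The other 33 points lie between -0.82 and 0.68, while Hist1h2ak at -2.52 and Hist1h4i at 1.36 stand outside with the widest error bars.

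Summed over all 68 genes, the level was 65.5, 70.5 and 53.8 CPM in the knockouts, against 92.5, 81.8 and 75.1 CPM in the controls. These sums did not overlap, with means of 63.3 ± 8.61 CPM in knockouts and 83.1 ± 8.75 CPM in controls (SD, n = 3 each), a ratio of 0.761. The separation rested on Hist1h2ak, chosen like Hist1h4i after its values were seen. Without Hist1h2ak the sums were 58.2, 69.2 and 52.99 CPM in the knockouts and 81.2, 54.9 and 59.6 CPM in the controls, and they overlapped, with control 1 above the other 5 embryos. Without Hist1h4i alone they stayed apart, at 64.7, 61.2 and 49.8 CPM in the knockouts against 88.3, 80.9 and 74.7 CPM in the controls. Without both genes they overlapped, at 57.4, 59.9 and 49.0 CPM in the knockouts and 77.0, 54.0 and 59.2 CPM in the controls. No test is given for sums, since the genes had been chosen with earlier results known.

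**Figure D3:**
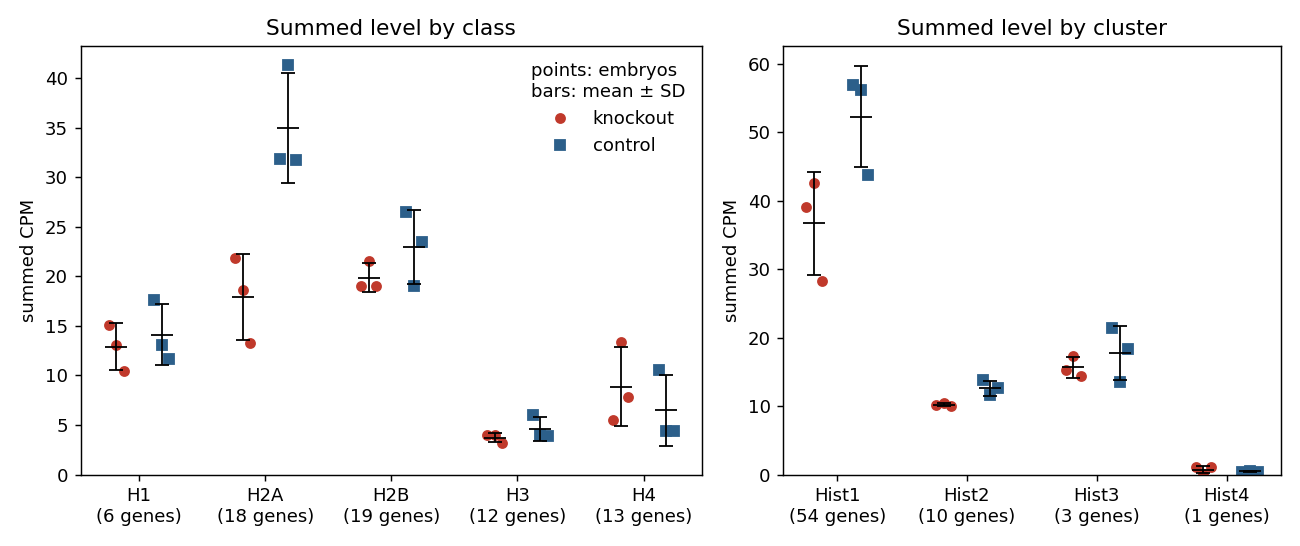
Summed CPM of the histone genes per embryo by class (left) and by cluster (right), with knockouts in red and controls in blue, and the mean and SD of 3 embryos in black. Only the H2A class and the Hist1 and Hist2 clusters have groups that do not overlap, and H2A and Hist1 both contain Hist1h2ak.

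The 5 tested linker histone genes had overlapping levels in both groups. The 6 H1 genes summed to 15.1, 13.1 and 10.4 CPM in the knockouts and 17.6, 13.1 and 11.7 CPM in the controls, and none of 5 tested was called (edgeR adjusted p from 0.616 to 0.834). Hist1h1c encodes H1.2, a linker histone whose transcript is also made with a poly(A) tail. It had 139, 140 and 147 counts in the knockouts against 152, 139 and 132 in the controls, or 5.19 ± 0.156 and 4.87 ± 0.30 CPM (SD, n = 3 each). The groups overlapped, and its log2 fold change of 0.09 ± 0.14 (SE) was among the best determined of all the histone genes. Hist1h1e, which encodes H1.4, had 89, 103 and 75 counts in the knockouts against 130, 103 and 86 in the controls. Hist1h1d, for H1.3, had 53, 47 and 31 counts in knockouts against 89, 59 and 32 in controls, and Hist1h1b, for H1.5, had 56, 46 and 21 against 79, 52 and 39. All 3 had overlapping groups, and their log2 fold changes were -0.17 for Hist1h1e, -0.36 for Hist1h1d and -0.37 for Hist1h1b. Hist1h1e overlaps Hist1h2be on the same strand in GENCODE M21. If the annotation used for counting has this overlap too, not all of its reads can be assigned. Hist1h1t, the linker histone of spermatocytes, was not tested and had 0, 0 and 1 counts in the knockouts against 4, 5 and 2 in the controls, groups that did not overlap at 12 counts in all.

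Among the 5 classes H2A had the largest difference between group sums, and Hist1h2ak supplied most of it. The 18 genes summed to 21.9, 18.6 and 13.3 CPM in the knockouts, against 31.9, 41.3 and 31.7 CPM in the controls, a log2 ratio of the means of -0.96. Hist1h2ak, a canonical H2A gene of the Hist1 cluster, had 190, 36 and 23 counts in the knockouts against 328, 790 and 440 in the controls. Every knockout lay below every control, but knockout 1 at 7.32 CPM was far above knockouts 2 and 3 at 1.33 and 0.789 CPM, and the controls ran from 11.3 to 26.9 CPM. The means were 3.15 ± 3.63 CPM in knockouts and 17.9 ± 8.07 CPM in controls (SD, n = 3 each), with a log2 fold change of -2.52 ± 0.82 (SE) and an edgeR adjusted p of 0.189. Across the alternatives with all 6 embryos its adjusted p ran from 0.067 by limma-voom to 0.329 with the replicate number as a block, and without single embryos from 0.00948 without knockout 1 to 0.451 without knockout 3. GENCODE M21 annotates Gm44454 on the opposite strand over Hist1h2ak, and the strand setting of the counting is not given in the sources used here. Reads of either strand can therefore not be told apart.

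Without Hist1h2ak the H2A sums overlapped, at 14.6, 17.3 and 12.5 CPM in the knockouts and 20.6, 14.5 and 16.2 CPM in the controls. Hist3h2a, the H2A gene of the Hist3 cluster, had 267, 306 and 277 counts in the knockouts against 396, 280 and 330 in the controls. Its groups overlapped and its log2 fold change was -0.16 ± 0.15 (SE, edgeR adjusted p = 0.571). In GENCODE M21 it overlaps Trim17 on the same strand and Gm44313 on the other. Hist1h2ab had 11, 24 and 7 counts in the knockouts against 31, 19 and 29 in the controls, at -0.82 ± 0.45 and an edgeR adjusted p of 0.34. Hist2h2ac had 10, 22 and 13 counts in knockouts and 25, 21 and 22 in controls, again with knockout 2 inside the range of the controls. The one tested H2A gene with an estimate above 0 was Hist1h2ag at 0.42.

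**Figure D4:**
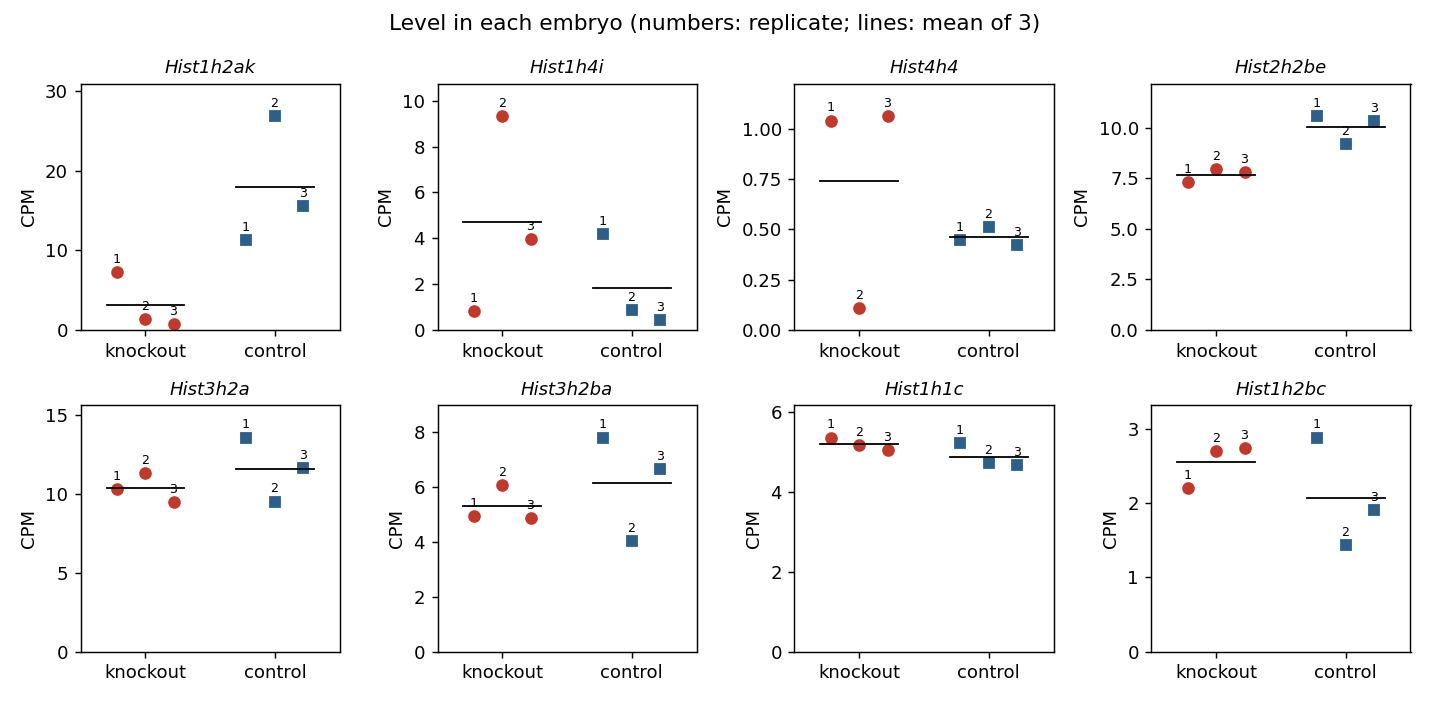
Level in CPM of 8 histone genes in each embryo, with knockouts (red circles) left of controls (blue squares), replicate numbers beside the points and a line at the mean of 3. Hist1h2ak has all knockouts below the controls and a wide range in both groups, Hist1h4i and Hist4h4 vary within a group, and Hist2h2be has narrow groups that do not overlap.

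H2B genes had overlapping sums, at 19.1, 21.5 and 19.0 CPM in the knockouts and 26.4, 19.0 and 23.5 CPM in the controls. Hist2h2be, whose transcript is known to carry a poly(A) tail in many tissues, had the smallest adjusted p of the 35 genes. It had 190, 215 and 227 counts in the knockouts against 309, 270 and 292 in the controls, or 7.68 ± 0.323 against 10.03 ± 0.75 CPM (SD, n = 3 each). All knockouts lay below all controls, the log2 fold change was -0.38 ± 0.12 (SE), and the edgeR adjusted p of 0.15 did not pass. None of its 50-base windows occurred in another gene, so no near-identical copy was found for it at this window size. Hist1h2bc, the other H2B gene known for polyadenylated transcripts, had 57, 73 and 80 counts in the knockouts and 84, 42 and 54 in the controls, at 0.30 ± 0.27. Hist3h2ba had 128, 164 and 142 counts in knockouts against 227, 118 and 188 in controls, with control 2 below and controls 1 and 3 above every knockout. Hist1h2bk had 10, 18 and 13 counts in knockouts against 21, 24 and 21 in controls, groups that did not overlap at very low depth (edgeR adjusted p = 0.322). Hist2h2bb had 38, 20 and 27 counts in knockouts and 36, 25 and 20 in controls. The testis H2B gene Hist1h2ba and the testis H2A gene Hist1h2aa had 0 to 3 counts per library in both groups.

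Summed counts of the replication-dependent H3 genes in poly(A)-selected RNA were not higher in embryos with less H3f3a and H3f3b RNA. Transcripts without a tail are mostly not seen in such RNA, so the whole H3 mRNA pool was not measured. The 12 H3 genes had 103, 108 and 93 counts in the knockouts against 174, 116 and 109 in the controls, or 3.72 ± 0.455 and 4.59 ± 1.20 CPM (SD, n = 3 each). The summed CPM overlapped between groups, with control 1 above the other 5 embryos. The 4 genes for H3.1 (Hist1h3a, Hist1h3g, Hist1h3h and Hist1h3i) had 24, 33 and 27 counts in the knockouts against 38, 41 and 31 in the controls. The 8 genes for H3.2 had 79, 75 and 66 counts in knockouts against 136, 75 and 78 in controls. The log2 ratios of the mean CPM were -0.31 for H3.1 genes and -0.30 for H3.2 genes. In the same embryos H3f3a and H3f3b together gave 522 ± 55.3 CPM in knockouts and 1040 ± 46.6 CPM in controls. As a share of the counts of all these H3 genes, not corrected for length, the replication-dependent ones made up 0.731%, 0.698% and 0.688% in the knockouts, against 0.585%, 0.359% and 0.379% in the controls. The groups did not overlap in this share, in which the H3f3a and H3f3b counts were lower in knockouts and the H3 sums were not higher. It is a share of counts after poly(A) selection and without reads that align to several places. It is therefore not the share of these genes in H3 mRNA.

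Of 6 tested H3 genes none was called (edgeR adjusted p from 0.282 to 0.982) and 4 estimates were below 0. Hist1h3g, an H3.1 gene, had 9, 10 and 13 counts in the knockouts against 15, 23 and 17 in the controls, at -0.70 ± 0.33 (SE). Hist2h3c1, an H3.2 gene, had 6, 9 and 10 counts in knockouts against 15, 15 and 11 in controls, at -0.63 ± 0.36. Both had groups that did not overlap, though by a few counts only. Hist1h3f had 20, 19 and 12 counts in knockouts and 35, 18 and 31 in controls, and Hist1h3d had 14, 11 and 20 against 34, 12 and 14. Standard errors were 0.33 to 0.67 on the log2 scale over the tested H3 genes, and Hist1h3g at -0.70 did not pass (edgeR adjusted p = 0.282). Differences of that size or somewhat larger could thus be missed with these embryos at this depth.

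Hist1h4i gave 42.4% of all H4 counts, and its share ran from 14.8% to 70.1% in the knockouts and from 9.6% to 39.5% in the controls. Hist1h4i, a canonical H4 gene of the Hist1 cluster, had 21, 253 and 116 counts in the knockouts and 122, 26 and 12 in the controls. Knockouts 2 and 3 and control 1 were high and the other 3 embryos low, so the groups overlapped, and the log2 fold change was 1.36 ± 1.06 (SE, edgeR adjusted p = 0.514). Hist4h4, the only gene of the Hist4 cluster, had 27, 3 and 31 counts in the knockouts against 13, 15 and 12 in the controls. Knockouts 1 and 3 lay above all controls and knockout 2 below them. These 2 genes thus split the knockouts differently, with knockout 2 highest for Hist1h4i and lowest for Hist4h4. Knockout 2 was also the knockout with 10.6% of alignments outside genes, against 18.3% and 18.02% in the others. With that share as a covariate the log2 fold change was 2.57 for Hist1h4i and -1.06 for Hist4h4, against 1.36 and 0.68 without it, and edgeR called neither (adjusted p of 0.302 and 0.372). The whole H4 class summed to 5.47, 13.3 and 7.86 CPM in the knockouts and 10.6, 4.42 and 4.42 CPM in the controls. Without Hist1h4i it was 4.18 ± 0.424 CPM in knockouts and 4.65 ± 1.55 CPM in controls (SD, n = 3 each). Hist1h4h had 10, 14 and 8 counts in knockouts against 25, 13 and 12 in controls, Hist1h4k 10, 18 and 11 against 26, 18 and 14, and Hist1h4d 20, 25 and 16 against 34, 16 and 12. All of these H4 genes had overlapping groups.

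By cluster, the Hist1 genes summed to 36.7 ± 7.52 CPM in knockouts and 52.3 ± 7.36 CPM in controls (SD, n = 3 each), with no overlap. Without Hist1h2ak the Hist1 sums were 33.5 ± 7.09 CPM in knockouts and 34.4 ± 9.78 CPM in controls, and they overlapped. The 10 Hist2 genes summed to 10.1, 10.4 and 10.1 CPM in the knockouts against 13.8, 11.6 and 12.6 CPM in the controls, a log2 ratio of -0.31. Hist2h2be made up most of the Hist2 sum, and the groups of that cluster did not overlap. The 3 Hist3 genes summed to 15.2, 17.4 and 14.4 CPM in the knockouts and 21.4, 13.6 and 18.3 CPM in the controls, with overlap.

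Within the clusters many histone genes lie head to head, so that 2 genes on opposite strands start next to each other. GENCODE M21 gave 19 neighbouring pairs in this orientation among protein-coding genes and members, of which 13 joined an H2A with an H2B gene. No limit was set on the distance between starts, so not every pair need share a promoter region. The RefSeq promoter windows of Hist1h4f (chr13:23551619-23551918) and Hist1h1d (chr13:23554782-23555081), for example, do not meet. In 16 pairs both genes had counts, and the CPM per kb of the higher gene was a median of 3.02 times that of the lower. Any count above 0 sufficed, so some ratios rest on very few counts, such as 1 for Hist3h2bb-ps and 3 for Hist1h2aa. The ratios also depend on the annotated lengths. Hist1h2ak and its partner Hist1h2bn were furthest apart, at 26.8 and 0.0462 CPM per kb, from 1807 and 3 counts over all 6 libraries. Of the windows of Hist1h2bn 86.5% were shared with other genes, against 52.3% of Hist1h2ak, and the reads left uncounted for each were not measured. The pair of Hist1h2ac and Hist1h2bc had 0.305 and 2.00 CPM per kb.

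The region between Hist1h2ak and Hist1h2bn is shown because both genes start in it and their CPM per kb differ most among the pairs. It is the RefSeq promoter window of Hist1h2ak (now H2ac15), from 250 bases before its start to 50 after, GRCm38.p6, minus strand, chr13:21753863-21754162. Capitals mark TATAAA and CCAAT on either strand.
Hist1h2ak: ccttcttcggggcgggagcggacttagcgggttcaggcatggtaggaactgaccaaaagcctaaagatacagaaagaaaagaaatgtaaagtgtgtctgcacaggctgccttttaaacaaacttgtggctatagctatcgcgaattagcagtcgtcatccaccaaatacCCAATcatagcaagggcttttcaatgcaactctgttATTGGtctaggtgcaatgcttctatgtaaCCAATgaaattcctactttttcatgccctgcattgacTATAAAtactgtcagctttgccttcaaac
The window held TATAAA 1 time and CCAAT or its reverse complement 3 times. Of 61 histone genes with a RefSeq window, 57.4% held TATAAA and 85.2% CCAAT on either strand, against 15.7% and 41.1% of 27025 genes with windows of the same length. A match is a description of the letters and not a measured site.

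Genes annotated with the hexamer AATAAA, the common signal for a poly(A) tail, held the larger part of the histone counts, not corrected for length. It was searched at any position of annotated transcripts, not only near their ends, so long transcripts can hold it by length alone. Long transcripts can also collect more counts, so the larger share does not show a higher level per base. In at least 1 transcript 22 genes had it, among them Hist3h2a, Hist3h2ba, Hist2h2be, Hist1h1c and Hist1h2bc, and these gave 57.6% of all histone counts. Their sum was 39.6 ± 2.42 CPM in knockouts and 44.9 ± 7.92 CPM in controls (SD, n = 3 each). The other 46 genes summed to 23.6 ± 6.19 CPM in knockouts and 38.2 ± 6.43 CPM in controls. Without Hist1h2ak they summed to 20.5 ± 6.24 CPM in knockouts and 20.3 ± 6.58 CPM in controls. The median log2 fold change of the tested genes was -0.26 with the hexamer and -0.25 without it. The genes also differed in the windows shared with other genes, at a median of 20.5% with the hexamer and 58.7% without it. The 3 genes listed for known polyadenylated transcripts, Hist1h1c, Hist1h2bc and Hist2h2be, together gave 15.4 ± 0.487 CPM in knockouts and 17.0 ± 1.68 CPM in controls.

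Genes that act on histone transcripts and replication gave no calls either. Of all tested genes 1.51% were called, so lists this short would hold few calls at that share. An unadjusted edgeR p under 0.05 was found for 19.2% of all tested genes. None of 27 tested genes of histone mRNA transcription and processing was called by edgeR, with 5 at an unadjusted p under 0.05 and a median log2 fold change of -0.06. Cpsf1 and Cpsf2, subunits of the cleavage and polyadenylation machinery, had the smallest p-values, with log2 fold changes of 0.35 and -0.22 (edgeR adjusted p of 0.101 and 0.138). Nor was any of 25 S phase genes called, 1 having an unadjusted p under 0.05. Their summed level was 4437 ± 151 CPM in knockouts and 4743 ± 434 CPM in controls (SD, n = 3 each). E2f1, a driver of S phase transcription, had a log2 fold change of 0.23 (edgeR adjusted p = 0.196). None of 15 mitosis genes and none of 11 genes for replication-coupled H3-H4 chaperones was called, with 4 and 1 at an unadjusted p under 0.05. The mitosis genes summed to 4969, 4936 and 4881 CPM in the knockouts against 5377, 5962 and 5192 CPM in the controls. These sums did not overlap, and 14 of the 15 estimates were below 0, with a median of -0.15 against -0.001 over all tested genes. Of 11 tested replication-independent histone genes, H3f3a and H3f3b were the only ones called, and H1f0, a linker histone of differentiated cells, had a log2 fold change of 0.44 (edgeR adjusted p = 0.121).

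Markers of some cell types differed between the groups. Of 11 macrophage markers 10 were called lower by edgeR, with summed levels of 3.03 to 4.47 CPM in knockouts against 60.2 to 73.4 CPM in controls, and C1qb and C1qc had no counts in any knockout. Neuron markers summed to 759 to 998 CPM in knockouts against 910 to 1230 CPM in controls, with 1 of 10 called lower (Nhlh1, -0.60, edgeR adjusted p = 0.0333), and 1 of 6 endothelial markers was called higher (Kdr, 0.44, edgeR adjusted p = 0.0302). None of 9 tested erythroid markers was called. Of 7 placenta and visceral endoderm markers 3 were tested and 1 was called lower (Ttr, -1.69, edgeR adjusted p = 0.00886). Whether these cell types play a part in the histone values was not tested.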

How the data were processed

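The authors deposited whole-number counts per gene symbol for each of 6 libraries. Per the labels' protocols, poly(A) RNA was made into stranded libraries, and the submitters' processing notes name mm9, Trimmomatic, TopHat2, Bowtie2 and HTSeq. Which strand setting and annotation served the counting is unknown from the labels. Rows naming no gene were left out of tests and library sizes, among them 18.2% to 22.6% of alignments that were not unique and 9.79% to 18.3% outside genes. The 6 repeat tables were not used here.

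Groups came from the titles. edgeR 4.0.16 (R 4.3.3) was fitted to all genes and libraries with group as the only term (quasi-likelihood F test, TMM, robust, filterByExpr with a minimum count of 10 and total of 15), and tested on simulated data. An adjusted p under 0.05 (Benjamini-Hochberg over all genes) was called. SE is the size of the log2 fold change divided by the root of F. Sums use all 68 genes. CPM uses TMM-scaled library sizes. Alternatives included DESeq2 1.42.0 and limma-voom 3.58.1.

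The histone genes and lists were chosen with earlier results of these data known. Named were, per class, the 3 smallest p-values and 2 highest levels, up to 3 tested genes each of Hist2, Hist3 and Hist4, the polyadenylated and germ cell genes, and genes of other lists by p. Hist1h2ag and the pairs were named after their values were seen. GENCODE and RefSeq (GRCm38) supplied names, neighbours, lengths and sequences, matched by symbol for 68 and 67 genes.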

Additional observations from a re-analysis of the deposited data

How the results depend on the processing

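With all 6 embryos, no histone gene was called by DESeq2, limma-voom, library totals, RLE or upper quartile scaling, with no filter, a 1 CPM filter, an adjusted p under 0.10, without Rn45s or with the covariate. Leaving out single embryos gave 0 to 1 histone genes called higher and 0 to 1 lower. Over the 35 to 39 histone genes tested in these fits, the median log2 fold change ran from -0.382 to -0.0434. It was -0.0467 with the share of alignments outside genes as a covariate. Left out together (added after seeing the data), knockouts 1 and 3 leave 1 knockout, assumed to vary like the controls. That gave a median of -0.0424, a Hist4 log2 ratio of -2.05 and no histone call. Without Hist1h2ak and Hist1h4i (also added) the log2 ratio of sums was -0.194 for all members, -0.207 for H2A and -0.175 for Hist1, against -0.393, -0.963 and -0.511 with them. Without Hist1h2ak alone (added too) it was -0.117 for all members and -0.0358 for Hist1, and without Hist1h4i alone -0.473 and -0.658.

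The sign of the log2 fold change turned for 8 named genes, and none was called in a setting where its sign turned. With the covariate it was 0.0874 for Hist1h1e, 0.0185 for Hist1h4k, -0.0883 for Hist2h2bb and -1.06 for Hist4h4. Without knockouts 1 and 3 it was 0.0555 for Hist1h1e, 0.0567 for Hist2h2ac, -0.33 for Hist2h2bb and -2.01 for Hist4h4. Without single embryos it ran from -0.651 to 0.0324 for Hist1h1d, from -0.606 to 0.272 for Hist1h3d, from -0.195 to 0.615 for Hist1h4d and from -0.151 to 0.413 for Hist2h2bb.

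Over all genes, 83 were called higher and 144 lower. Calls were 456 and 323 by DESeq2, 272 and 256 at an adjusted p under 0.10, and 437 and 311 with the covariate. Higher calls were 52 by limma-voom, 144 without a filter, and 260 without knockouts 1 and 3, and lower calls were 86 with the 1 CPM filter. Without single embryos they ran from 7 to 1159 higher and from 53 to 504 lower. The cause was not tested. The replicate numbers gave correlations of -0.0997, 0.227 and 0.308 between same-numbered embryos. These were not set beside differently numbered embryos, so whether the numbers pair the samples was not settled. The replicate block gave 333 higher and 256 lower calls and no histone gene. Tested histone genes had a median of 121 counts over all 6 libraries, which limits the differences that could be called.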
